A study of Mus musculus with 9 samples.

Results

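The contractile genes of slow muscle fibres were followed in mouse gastrocnemius as 7 genes taken by symbol: the thick-filament genes Myh7, Myl2 and Myl3 and the thin-filament genes Tnnt1, Tnni1, Tnnc1 and Tpm3. They are 7 of 8251 genes that the array's annotation names, and were represented by 10 of its 12422 probe sets that are not controls. Myh7, Tnnt1 and Tpm3 had 2 probe sets each and the other genes 1 each. A filter on dim probe sets kept 7453 probe sets in all and 8 of the 10, with at least 1 for each of the 7 genes.

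RNA of whole gastrocnemius from 9 individual mice was hybridised to Affymetrix U74Av2 arrays, 1 array per mouse. The 2 wild-type mice (strain C57Bl/DBA2/129OLA-Ev, both 7 weeks old, 1 female and the other male) carried an intact mouse Dmd gene, and the 1 hDMD mouse (male, 11 weeks) carried the full-length human DMD gene as well. The mouse Dmd gene is mutated in all mdx animals: 2 mdx mice (male, 15 and 13 weeks), 2 hDMD mdx mice that also carried the human gene (male, 24 and 10 weeks), 1 mdx utrn-/- mouse without utrophin (male, 5 weeks) and 1 hDMD mdx utrn-/- mouse with the human gene and without utrophin (male, 9 weeks). The labels give a strain for the wild-type mice, and the genotypes with 1 mouse have no spread of their own. Mice are numbered here by the order of their samples, and the numbers pair nothing. The comparisons ask how the human gene acts in muscle that lacks mouse dystrophin, with and without utrophin.

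Slow, or type I, fibres build their sarcomere from a set of contractile proteins that differs from that of fast fibres: their own myosin heavy chain (Myh7), their own regulatory and essential light chains (Myl2 and Myl3), and their own troponin subunits and tropomyosin. Several of these proteins are shared with the heart. The gastrocnemius of the mouse is mostly fast, with slow fibres lying in its deep part, and embryonic sarcomere genes are re-expressed where dystrophin-deficient fibres regenerate.

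RefSeq promoter windows (GRCm38.p6, 250 bases before to 50 after each gene's annotated start, read 5′ to 3′ on the gene's strand) matched 7 of 7 genes by symbol. One window of each gene is printed, since the genes shared an array-to-array pattern described below, Tnni1 least. Of genes with 2 windows, the one with more motif matches was taken, or the first where the counts were equal. Capitals mark a match, on either strand, to the TATA box (TATAAA), the MCAT element (CATTCC), the MEF2 site or the CArG box, and matches to the short E-box (CANNTG), which can overlap these, are left in lower case. The thick-filament windows are Myh7 at chr14:54994577-54994876, minus strand, Myl2 at chr5:122092939-122093238, plus strand, and Myl3 at chr9:110763428-110763727, plus strand. The thin-filament windows are Tnnt1 at chr7:4515926-4516225, minus strand, Tnni1 at chr1:135799171-135799470, plus strand, Tnnc1 at chr14:31208062-31208361, plus strand, and Tpm3 at chr3:90072401-90072700, plus strand.
Myh7: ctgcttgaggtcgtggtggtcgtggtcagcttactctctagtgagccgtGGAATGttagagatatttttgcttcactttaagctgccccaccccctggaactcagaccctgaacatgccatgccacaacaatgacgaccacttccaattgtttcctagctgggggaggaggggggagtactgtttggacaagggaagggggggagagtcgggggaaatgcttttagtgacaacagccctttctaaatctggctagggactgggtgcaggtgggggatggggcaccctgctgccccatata
Myl2: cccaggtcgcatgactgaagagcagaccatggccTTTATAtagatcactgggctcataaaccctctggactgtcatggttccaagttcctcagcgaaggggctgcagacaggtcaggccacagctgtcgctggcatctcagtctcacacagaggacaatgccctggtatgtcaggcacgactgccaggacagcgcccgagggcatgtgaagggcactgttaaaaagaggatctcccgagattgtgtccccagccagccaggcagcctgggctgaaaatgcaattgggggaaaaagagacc
Myl3: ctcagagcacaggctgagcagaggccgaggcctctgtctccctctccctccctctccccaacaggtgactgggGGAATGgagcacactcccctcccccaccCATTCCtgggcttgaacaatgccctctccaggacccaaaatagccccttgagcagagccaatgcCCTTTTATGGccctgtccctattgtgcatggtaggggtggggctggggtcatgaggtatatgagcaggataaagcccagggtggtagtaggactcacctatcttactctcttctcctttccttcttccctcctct
Tnnt1: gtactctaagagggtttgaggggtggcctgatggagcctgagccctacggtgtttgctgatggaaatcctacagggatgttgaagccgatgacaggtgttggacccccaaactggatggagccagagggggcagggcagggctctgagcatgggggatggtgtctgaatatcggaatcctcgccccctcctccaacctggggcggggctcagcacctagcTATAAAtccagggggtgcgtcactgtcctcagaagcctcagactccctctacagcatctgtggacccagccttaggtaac
Tnni1: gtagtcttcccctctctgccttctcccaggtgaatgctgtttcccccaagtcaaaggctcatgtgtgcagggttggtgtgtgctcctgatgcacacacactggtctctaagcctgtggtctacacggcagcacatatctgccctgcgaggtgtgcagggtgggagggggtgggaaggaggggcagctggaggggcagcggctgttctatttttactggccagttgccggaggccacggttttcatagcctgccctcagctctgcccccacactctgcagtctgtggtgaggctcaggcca
Tnnc1: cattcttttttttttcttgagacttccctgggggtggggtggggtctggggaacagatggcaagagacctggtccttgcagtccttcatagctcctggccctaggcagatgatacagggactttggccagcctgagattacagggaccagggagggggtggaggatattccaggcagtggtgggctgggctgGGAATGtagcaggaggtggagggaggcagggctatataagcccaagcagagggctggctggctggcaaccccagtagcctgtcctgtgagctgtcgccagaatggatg
Tpm3: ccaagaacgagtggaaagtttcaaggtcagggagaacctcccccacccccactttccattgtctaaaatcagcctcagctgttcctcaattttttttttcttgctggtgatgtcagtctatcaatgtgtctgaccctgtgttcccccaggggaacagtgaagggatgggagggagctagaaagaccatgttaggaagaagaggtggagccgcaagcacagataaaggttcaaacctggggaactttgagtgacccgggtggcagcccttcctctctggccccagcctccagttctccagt
Positions count from the start site. An MCAT element lay at -201 to -196 in Myh7, at -177 to -172 and -149 to -144 in Myl3, and at -58 to -53 in Tnnc1. A CArG box lay at -85 to -76 in Myl3 and a TATA box at -30 to -25 in Tnnt1 and, on the other strand, at -216 to -211 in Myl2. The Tnni1 and Tpm3 windows held none of the 4 capitalised motifs, with 4 E-boxes in Tnni1 and 1 in Tpm3. Among 32841 windows of this length in the same set, 14.7% held the MCAT letters, 13.6% the TATA box, 1.63% the CArG box, 3.19% the MEF2 site and 72.3% an E-box. Those windows were not chosen by their matches, unlike the ones printed for Myh7, Myl2 and Tnni1, so the shares are no like comparison for these genes. The other Myh7 window held no MCAT element and the other Myl2 window no TATA box. Matches describe letters in the window and say nothing of binding.

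The arrays differed in brightness before any gene was considered. Bacterial RNAs added at hybridisation had a median intensity of 206 to 225 on 3 arrays (wild-type 1, hDMD mdx 1 and mdx 2) and of 28.5 to 42.3 on the other 6. After quantile normalisation every level below is given as log2 of the intensity plus 16, so that 4 is the floor. The median, over kept probe sets, of the difference between the bright and the dim mouse of a genotype was then at most 0.03. Each genotype with 2 mice has 1 bright and 1 dim array. A difference between its mice is therefore also a difference between bright and dim, and these cannot be told apart. Skeletal muscle markers were high on all 9 arrays, with a summed intensity of 15215 to 18139, and the cardiac marker list summed to 26.8 to 103.

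Of the thick-filament genes, Myh7 encodes the slow (beta) myosin heavy chain, the motor protein of type I fibres. Its kept probe set, 98616_f_at (the suffix marks probes shared within a gene family), read 9.75 and 6.60 in wild-type 1 and 2 and 8.30 in hDMD. It read 9.01 and 7.84 in hDMD mdx 1 and 2 and 8.27 in the hDMD mdx utrn-/- mouse. In mdx 1 and 2 it read 5.34 and 9.28, and in mdx utrn-/- 8.84. The highest and the lowest level thus came from the genotypes with a bright and a dim array, and the ranges of wild-type and mdx overlapped over most of their length. The other Myh7 probe set, 161547_f_at, lay under the filter and was at the floor except for 6.61 in wild-type 1 and 4.61 in mdx 1.

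Myl2, the slow and ventricular regulatory light chain that binds the myosin neck, had the same highest array and the same 3 lowest arrays as Myh7. Its probe set 93050_at read 9.46 and 6.84 in wild-type 1 and 2, 8.78 in hDMD, 9.28 and 8.27 in hDMD mdx 1 and 2, and 8.67 in hDMD mdx utrn-/-. It read 5.60 and 9.15 in mdx 1 and 2 and 8.49 in mdx utrn-/-. Low values were confined to wild-type 2 and mdx 1 among the 9 arrays for this gene, and all others lay at 8.27 or above. The intensities as deposited show the same for the dim arrays: 28.7 in wild-type 2 and 8.36 in mdx 1 against 129 in hDMD, 92.2 in mdx utrn-/-, 66.1 in hDMD mdx 2 and 48.6 in the hDMD mdx utrn-/- mouse.

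Myl3, the slow and ventricular essential light chain, varied less. Probe set 93514_at read 8.01 and 7.12 in wild-type, 8.39 in hDMD, 7.64 and 8.07 in hDMD mdx and 8.46 in the hDMD mdx utrn-/- mouse. It read 6.11 and 7.59 in mdx and 7.88 in mdx utrn-/-. Both hDMD mdx mice lay above both mdx mice, and the hDMD mouse above both wild-type mice, while hDMD mdx 1 and mdx 2, the bright pair, were 0.048 apart.

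Tnnt1 encodes slow troponin T, which ties the troponin complex to tropomyosin. Probe set 161361_s_at read 10.25 and 7.19 in wild-type, 8.87 in hDMD, 9.93 and 8.54 in hDMD mdx, 8.66 in hDMD mdx utrn-/-, 7.73 and 10.45 in mdx, and 9.56 in mdx utrn-/-. Its other probe set, 101383_at, was dimmer, at 7.90 and 5.26, 6.36, 7.35 and 5.73, 6.40, 5.81 and 7.81, and 6.53 in the same order. On both probe sets the 3 bright arrays were the highest and wild-type 2 the lowest. They differed in the second-lowest array, which was mdx 1 for 161361_s_at and hDMD mdx 2 for 101383_at.

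Tnni1, the slow inhibitory troponin subunit, is also expressed in developing muscle. Probe set 98561_at read 8.63 and 5.76 in wild-type, 8.20 in hDMD, 8.37 and 7.51 in hDMD mdx and 8.28 in the hDMD mdx utrn-/- mouse. It read 8.12 and 9.07 in mdx and 9.38 in mdx utrn-/-. Here mdx 1 was not low: wild-type 2 stood alone at the bottom, and mdx utrn-/-, a dim array, was the highest of the 9.

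Tnnc1, the calcium-binding troponin subunit of slow and cardiac muscle, read 8.73 and 5.69 in wild-type, 7.51 in hDMD, 7.97 and 7.35 in hDMD mdx, 7.76 in hDMD mdx utrn-/-, 6.20 and 8.35 in mdx, and 8.26 in mdx utrn-/- (probe set 101063_at). Tpm3, the slow tropomyosin gene, which also has isoforms outside muscle, was the least variable thin-filament gene. Its probe set 93266_at read 9.85 and 8.02 in wild-type, 9.13 in hDMD, 9.33 and 8.79 in hDMD mdx, 9.35 in hDMD mdx utrn-/-, 7.79 and 9.28 in mdx, and 9.72 in mdx utrn-/-. For both genes wild-type 2 and mdx 1 were the lowest arrays. The other Tpm3 probe set, 93265_at, lay under the filter and was off the floor only in mdx 2 (5.13) and mdx utrn-/- (4.13).

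**Figure D1:**
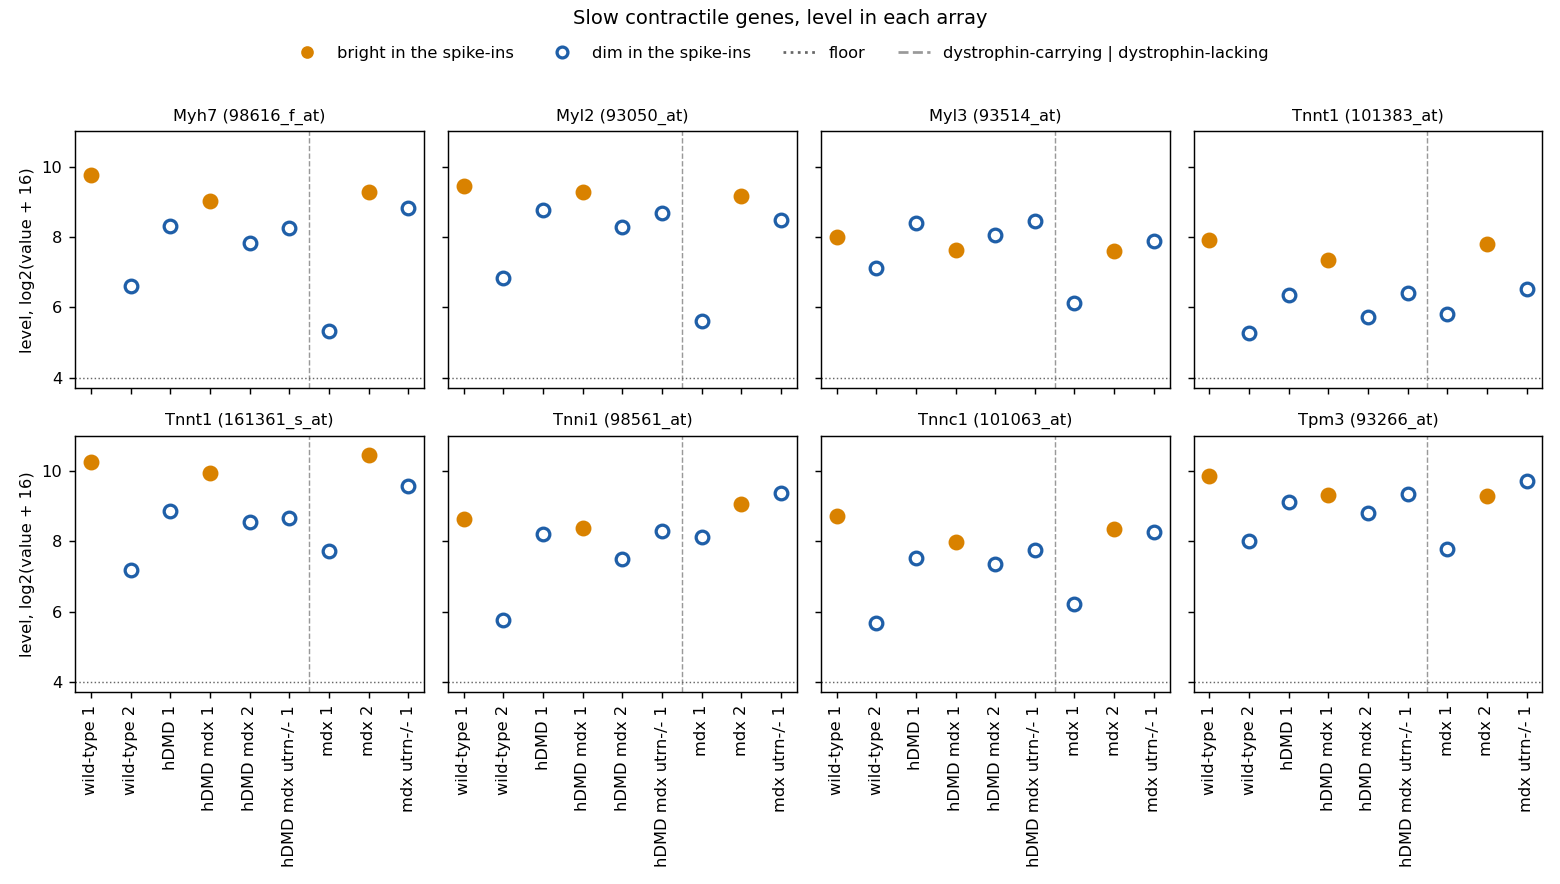
Levels of the 8 kept probe sets, as log2 of the quantile-normalised intensity plus 16, in each of the 9 arrays by genotype, with bright and dim arrays marked. Within wild-type and mdx the mice lie far apart, with wild-type 2 and mdx 1 low for most genes.

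For Myl2 the genotype means ran from 8.78 in hDMD mdx (SD 0.72, n = 2) and 8.78 in hDMD (n = 1) through 8.67 in hDMD mdx utrn-/-, 8.49 in mdx utrn-/- and 8.15 in wild-type (SD 1.85, n = 2) to 7.38 in mdx (SD 2.51, n = 2). Each step between neighbours was smaller than the SD of the wild-type or of the mdx mice. The Tnni1 order differed, from 9.38 in mdx utrn-/- (n = 1) and 8.60 in mdx (SD 0.67, n = 2) through 8.28 in the hDMD mdx utrn-/- mouse, 8.20 in hDMD and 7.94 in hDMD mdx (SD 0.61, n = 2) to 7.20 in wild-type (SD 2.03, n = 2). The step from mdx to mdx utrn-/- was larger than the SD of the mdx mice and rests on 1 mouse, and the wild-type SD covers the step next to it. A moderated F test in limma for any difference among the 6 genotypes gave an adjusted p of 1.0 for every kept probe set of the 7 genes, and called 0 of 7453 (0%), with 220 (2.95%) at an unadjusted p under 0.05, 0 of them slow. With brightness as a block the slow probe sets' adjusted p-values in limma lay between 0.436 and 0.541, and 1 of the 8 (Tnni1) had an unadjusted p under 0.05, as did 11.2% of all kept probe sets.

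These genes varied widely between arrays. The SD over the 9 arrays was 0.71 (Tpm3) to 1.39 (Myh7), against a median of 0.42 over all kept probe sets. Of the kept probe sets, 0.456% had an SD at least as large as that of Myh7, 0.872% as that of Myl2 and 12.7% as that of Tpm3. Over the 6 dim arrays alone, 1 mouse of each genotype, so that genotype and mouse both enter, the SD was 0.49 and 0.84 for the Tnnt1 probe sets, 0.76 for Tpm3, 0.90 for Myl3, 0.98 for Tnnc1, 1.20 for Tnni1, 1.28 for Myl2 and 1.31 for Myh7. The median over all kept probe sets was 0.37 there, and 27.5% of them had an SD at least as large as the lower Tnnt1 value.

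Between the wild-type mice, both 7 weeks old, wild-type 1 minus wild-type 2 was 3.15 for Myh7, 2.62 for Myl2, 3.04 for Tnnc1, 2.87 for Tnni1, 2.64 and 3.06 for the Tnnt1 probe sets, 1.83 for Tpm3 and 0.89 for Myl3. Wild-type 1 was higher for 7 of 7 genes, and it was the female. Between the mdx mice, mdx 2 minus mdx 1 was 3.94 for Myh7, 3.55 for Myl2, 2.14 for Tnnc1, 2.0 and 2.71 for Tnnt1, 1.49 for Tpm3, 1.48 for Myl3 and 0.95 for Tnni1. The hDMD mdx mice were closer: hDMD mdx 1 minus hDMD mdx 2 lay between 0.54 and 1.62 for 6 of 7 genes and was -0.43 for Myl3. Within bulk muscle, fewer slow fibres and less slow mRNA per fibre cannot be told apart either.

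**Figure D2:**
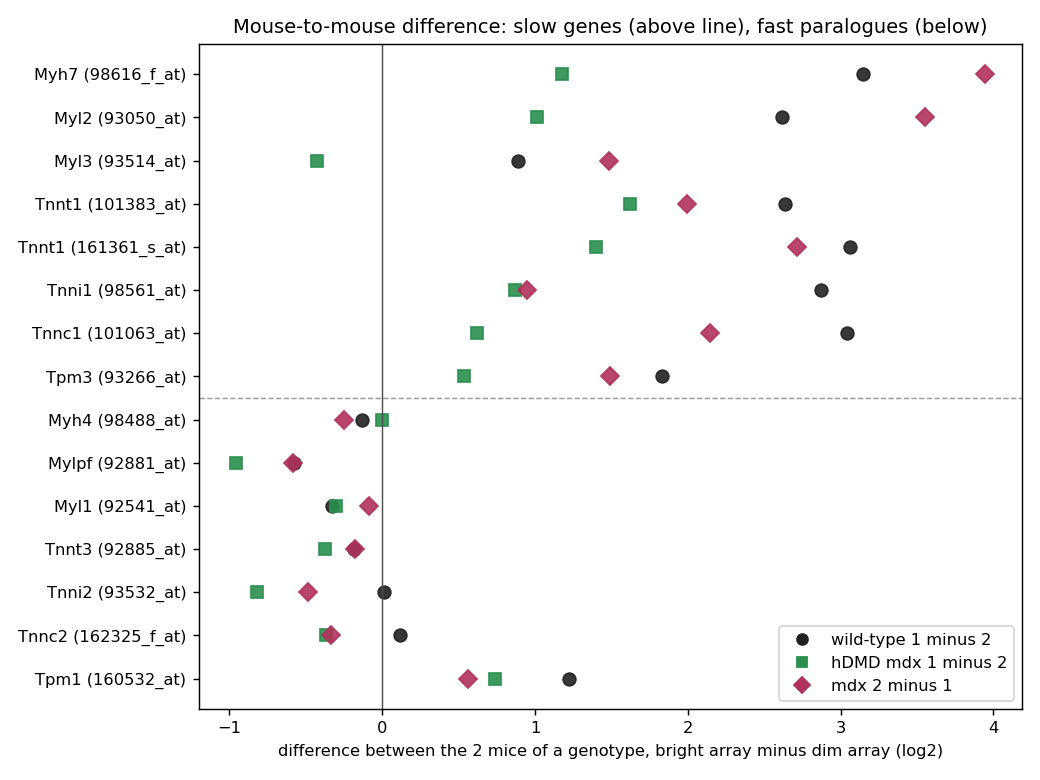
Difference in log2 level between the bright and the dim mouse of wild-type, hDMD mdx and mdx, for the slow genes and for the fast paralogue of each. The slow genes reach 3.15 in wild-type and 3.94 in mdx. Each fast paralogue is shown at its probe set of highest mean, where Tpm1 has the highest value, 1.22. Second probe sets, not shown, reached 1.27 (Myh4, wild-type) and -1.80 (Tnnc2, hDMD mdx).

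Among the dim arrays alone, wild-type 2 was one of the 2 lowest for 8 of 8 probe sets, mdx 1 for 6 and hDMD mdx 2 for 2. Neither mouse was low throughout to the same degree. The difference mdx 1 minus wild-type 2 was -1.26 for Myh7, -1.24 for Myl2 and -1.01 for Myl3, the thick-filament genes. It was -0.23 for Tpm3, 0.55 for each Tnnt1 probe set, 0.52 for Tnnc1 and 2.36 for Tnni1. So the thick-filament genes were lowest in mdx 1 and the troponin genes lowest in wild-type 2, on 1 array each, with no replicate.

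Other cell markers differed among the mice, and not alike in wild-type 2 and mdx 1. The summed intensity of the 7 slow genes was 749 in wild-type 2 and 833 in mdx 1, against 1853 to 4666 in the other mice. The macrophage markers (10 of 10 with a probe set, 9 kept) summed to 1296 in wild-type 2 and 1788 in mdx 1, and also to 1224 in mdx 2 and 997 in mdx utrn-/-, against 257 to 353 elsewhere. Adipocyte markers (5 of 7 with a probe set) summed to 2351 in wild-type 2, the highest of the 9, and to 377 in mdx 1. Blood markers (2 of 4 with a probe set) summed to 2101 in mdx 1, the highest, and to 1028 in wild-type 2. Nerve and Schwann cell markers (3 of 5 with a probe set) summed to 126 in wild-type 2 and 88.2 in mdx 1. Their lowest sum, 71.3, was in hDMD mdx 2. No marker of these lists was at the floor on all arrays. The macrophage sum of mdx 2, a bright array, stood beside a summed slow-gene intensity of 4153, whereas wild-type 2 and mdx 1 are dim. The part of these cell types in the low slow-gene levels was not tested.

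The fast paralogues, each at its probe set of highest mean, had smaller SDs over the 9 arrays, from 0.098 (Myh4) to 0.41 (Tpm1). Their second probe sets had SDs of 0.44 (Mylpf), 0.55 (Myh4) and 0.56 (Tnnc2). At its brighter probe set Myh4, the heavy chain of type IIb fibres, lay between 11.30 and 11.65 on all 9 arrays. Myl1, the fast essential light chain, lay between 11.27 and 11.73. Tnnt3 (fast troponin T) lay between 10.86 and 11.27. These 3 are among the brightest probe sets, where quantile normalisation leaves little room to differ. After the means of the bright and of the dim arrays were subtracted, the Pearson correlation over 9 arrays with the slow genes' mean profile was -0.26 (Tnnt3), -0.23 (Myh4), -0.065 (Tnnc2), 0.023 (Myl1), 0.056 (Tnni2), 0.40 (Mylpf) and 0.42 (Tpm1). Each slow gene correlated with the mean of the others at 0.58 (Tnni1) to 0.97 (Tpm3), as a description of arrays they share.

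The gene group score, the median over a list of each gene's deviation from the bright or the dim mean, put the slow genes at -0.94 in wild-type 2, -1.01 in mdx 1 and 1.13 in mdx utrn-/-. The 13 kept fast contractile genes stayed between -0.08 and 0.11 on all arrays. For the macrophage list the score was 0.91 in wild-type 2, 1.35 in mdx 1, 1.05 in mdx 2 and 0.55 in mdx utrn-/-, and below 0 in the other 5.

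**Figure D3:**
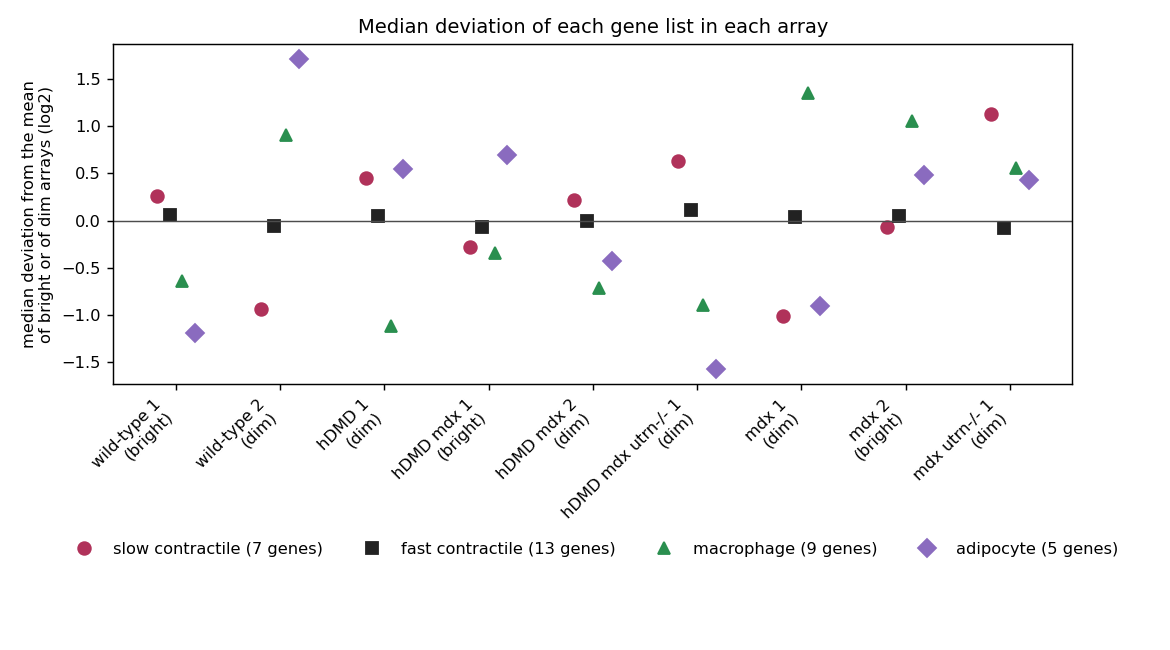
Median deviation (log2) of the slow contractile, fast contractile, macrophage and adipocyte lists from the mean of the bright or of the dim arrays, for each of the 9 arrays. The slow genes are lowest in mdx 1 (-1.01) and wild-type 2 (-0.94) and highest in mdx utrn-/- (1.13), and the fast list stays near 0.

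Of 5659 kept genes with a single symbol, those whose profile was most like the slow genes' mean profile, by the same correlation over 9 arrays, were Krt6b (a keratin, 0.96), Asrgl1 (an asparaginase, 0.95), Gm15934 (0.95), Nop2 (a nucleolar RNA methyltransferase, 0.94) and Eif2b5 (a translation initiation factor subunit, 0.92). Asrgl1 and Gm15934 were near the floor, at 4.0 to 5.07. Atp2a2, the calcium pump of slow and cardiac sarcoplasmic reticulum, came at rank 10 with 0.91 and is named after its value was seen. It read 6.82 and 4.80 in wild-type, 5.99 in hDMD, 6.30 and 5.39 in hDMD mdx, 5.38 in hDMD mdx utrn-/-, 4.40 and 6.36 in mdx, and 6.49 in mdx utrn-/-. Wild-type 2 and mdx 1 were its lowest arrays. It was picked for likeness to a profile lowest in these arrays, so this adds no separate evidence. The other 7 kept genes of the slow-associated list had lower correlations, from -0.39 (Cryab, a small heat shock protein) through 0.097 (Csrp3), 0.31 (Mb), 0.36 (Ankrd2), 0.53 (Actn2) and 0.55 (Casq2) to 0.57 (Myl6b).

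In the comparison of the 3 dystrophin-lacking mice (mdx and mdx utrn-/-) with the 6 that carried an intact mouse or human gene, none of the 7 genes passed the test. Limma called 9 of 7453 probe sets (0.121%) at an adjusted p under 0.05 and 416 (5.58%) at an unadjusted one, and 0 of the 8 slow probe sets by either. With brightness as a block it called 11 (0.148%), with 698 (9.37%) at an unadjusted p under 0.05, and again 0 of the 8 by either. Myl2 averaged 7.75 (SD 1.89, n = 3) without and 8.55 (SD 0.94, n = 6) with dystrophin, a difference of -0.80 ± 0.73 (SE, 95% interval -2.39 to 0.79, limma adjusted p = 0.999). Myl3 averaged 7.20 (SD 0.95) and 7.95 (SD 0.50), a difference of -0.75 ± 0.40 (interval -1.64 to 0.13, limma adjusted p = 0.986). Tnni1 lay the other way, at 8.86 (SD 0.66) against 7.79 (SD 1.06), a difference of 1.07 ± 0.56 (interval -0.16 to 2.29, limma adjusted p = 0.986). All 3 intervals include 0. The Tnni1 difference was about the size of the SD among the dystrophin-carrying mice, and those of Myl2 and Myl3 were smaller than the SD among the dystrophin-lacking ones.

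The remaining differences in that comparison were -0.48 for Myh7, 0.22 and 0.34 for Tnnt1, 0.10 for Tnnc1 and -0.15 for Tpm3. The median over the slow probe sets was -0.02. Without mdx 1 the difference for Myh7 was 0.76, for Myl2 0.27 and for Tpm3 0.42, so that their sign changed without this mouse. Without mdx 2 it was -0.33 and -0.25 for the Tnnt1 probe sets and -0.27 for Tnnc1. Other mice mattered too: the sign reversed for 3 of the 8 probe sets without wild-type 2. It reversed for 1 without wild-type 1 and for 1 without mdx utrn-/-. Arrays of the classes did not overlap, with dystrophin-lacking mice higher, in 1.52% of kept probe sets and, with them lower, in 1.42%, and in 0 of the 8 slow probe sets. The widest interval of the 8 was that of Myh7, -2.28 to 1.33.

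The mdx and wild-type mice, 2 each, were compared to ask what loss of mouse dystrophin does. The mdx mice were older, 15 and 13 weeks against 7, so genotype and age cannot be told apart here. Limma called 0 of 7453 probe sets (0%), with 130 at an unadjusted p under 0.05 (1.74%) and 0 of the 8 slow ones. Tnni1 averaged 8.60 (SD 0.67) in mdx and 7.20 (SD 2.03) in wild-type, a difference of 1.40 ± 0.90 (SE). It was 0.44 between the bright arrays and 2.36 between the dim ones. Without wild-type 2 the Tnni1 difference was -0.037. For Myh7 the means were 7.31 (SD 2.79) and 8.17 (SD 2.23), a difference of -0.86 ± 1.42, which without mdx 1 was 1.11. With brightness as a block limma gave Tnni1 an unadjusted p of 0.0323, the one slow probe set under 0.05, where 5.73% of all kept probe sets were under it.

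The hDMD mdx and mdx mice were compared to ask what the human gene does on the mdx background. Limma again called 0 of 7453 (0%), with 215 at an unadjusted p under 0.05 (2.88%) and 0 of the 8 slow probe sets. Myl2 averaged 8.78 (SD 0.72) with the human gene and 7.38 (SD 2.51) without, a difference of 1.40 ± 1.25 (SE). It was 0.13 between the bright arrays and 2.67 between the dim ones. Without mdx 1 the difference was -0.38. Myl3 was the 1 slow probe set whose arrays did not overlap, higher in hDMD mdx by 1.0 ± 0.57 (0.048 between bright and 1.96 between dim arrays), where 13.9% of all kept probe sets did the same. With the block Myl2 had an unadjusted p of 0.0463 in limma, the one slow probe set among the 7.29% of all kept probe sets under 0.05.

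**Figure D4:**
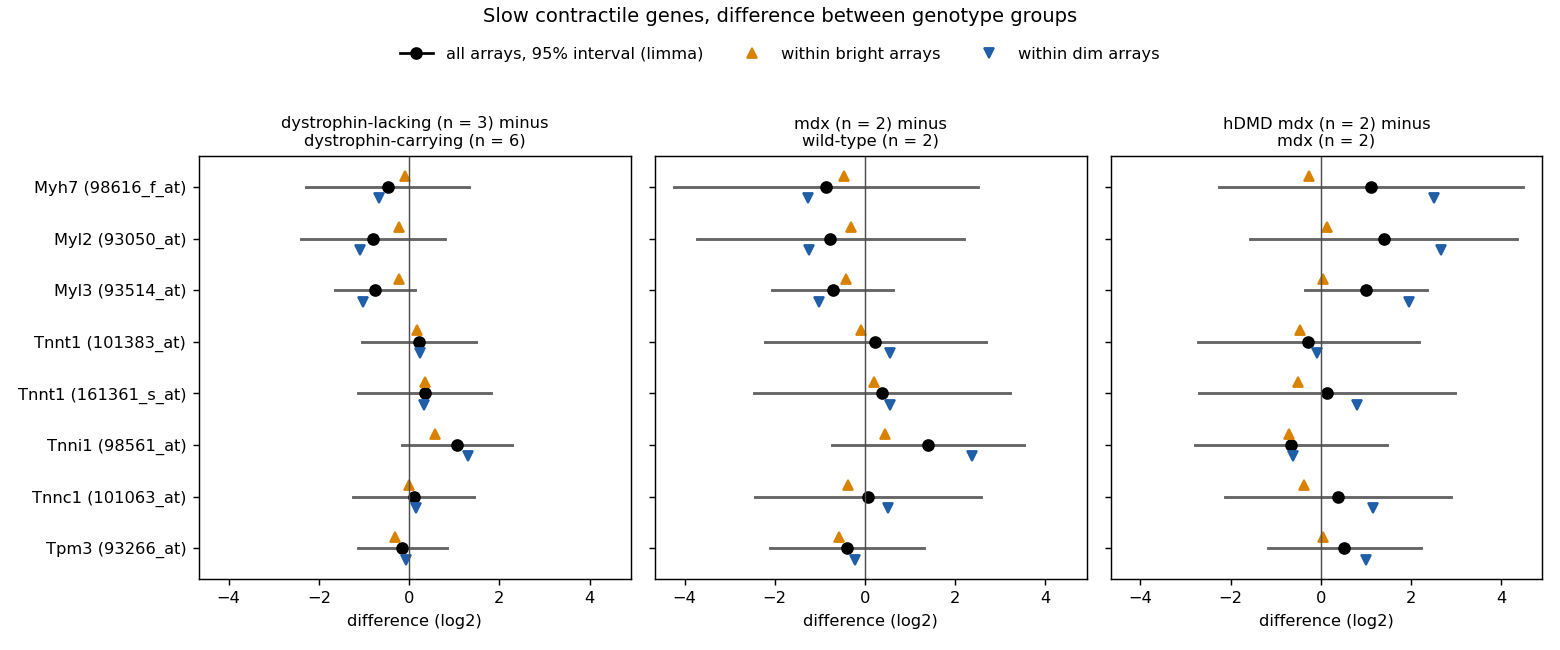
Difference in log2 level of each slow probe set (black points, with 95% intervals from limma; triangles, the same difference among bright or among dim arrays only) for dystrophin-lacking against dystrophin-carrying mice, mdx against wild-type and hDMD mdx against mdx. Every interval shown includes 0.

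The mdx-background mice without utrophin, 2 arrays, were compared with the 4 that carried it, with the human gene as a term. The mice without utrophin were younger, 5 and 9 weeks against 10 to 24, so utrophin and age cannot be told apart. Limma called 0 of 7453 (0%), with 440 at an unadjusted p under 0.05 (5.9%) and 0 of the 8 slow ones. Tpm3 was the 1 slow probe set whose arrays did not overlap, at 9.72 and 9.35 without utrophin and at most 9.33 with it, where 7.15% of all kept probe sets did the same and 9.18% did not overlap the other way. With brightness as a block, 6 of the 8 slow probe sets had an unadjusted p under 0.05 against 6.86% of all kept probe sets, and still 0 were called. Both utrophin-deficient arrays are dim, so this value sets them against hDMD mdx 2 and mdx 1. Without mdx 1 the count was 0 in place of 6, in a fit with fewer arrays and little left to estimate the spread. A count can fall there for any probe set, so the fall does not single out mdx 1. The hDMD mouse against the 2 wild-type mice gave 0 called (0%) and 136 at an unadjusted p under 0.05 (1.82%), 0 of them slow. Myl3 was the 1 slow probe set whose arrays did not overlap there, higher in hDMD, where 32.3% of all kept probe sets did the same and 28.1% did not overlap the other way. With the block 3 of the 8 (Myl2, Tnni1 and Tnnt1 161361_s_at) had an unadjusted p under 0.05 in limma, against 5.58% of all kept probe sets. The hDMD array is dim, as is the low array wild-type 2, and hDMD minus wild-type 2 was 1.94 for Myl2 and 2.44 for Tnni1. Without wild-type 2 the block fit sets this 1 dim array against wild-type 1, a bright one, so no count can be read from it. The hDMD mouse was also older than the wild-type mice, at 11 weeks against 7.

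Among 13 kept fast contractile genes 0 were called in limma in any of the 5 comparisons, and the smallest p-values between the dystrophin classes belonged to Actn3, the fast alpha-actinin (-0.31 ± 0.18), and Myoz1, a fast Z-disc protein (-0.33 ± 0.20). Among 8 kept slow-associated genes 0 were called. Mb, the oxygen-binding myoglobin of oxidative fibres, averaged 9.26 without and 9.96 with dystrophin (-0.70 ± 0.21, limma adjusted p = 0.547). Actn2, the alpha-actinin of all fibre types, differed by 1.0 ± 0.39 (limma adjusted p = 0.818), and neither passed the threshold. Among 14 kept regulators of the slow programme 0 were called. Sox6, a repressor of slow genes, differed by -0.58 ± 0.27 (6.58 without and 7.16 with dystrophin, limma adjusted p = 0.893), and Ppp3r1, the calcineurin regulatory subunit, by -0.39 ± 0.23.

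In the list of embryonic and cardiac sarcomere genes, 2 of 5 were higher without dystrophin past the threshold, where 0.121% of all kept probe sets were called in either direction. Myh3, the embryonic myosin heavy chain, averaged 6.56 (SD 0.75, n = 3) without and 4.32 (SD 0.19, n = 6) with dystrophin, a difference of 2.24 ± 0.30 (limma adjusted p = 0.0203). Myl4, the embryonic and atrial light chain, differed by 2.44 ± 0.26 (8.32 against 5.88, limma adjusted p = 0.00344). Under 18 alternatives the Myl4 call held in 16 and the Myh3 call in 7. Both ended on deposited values (limma adjusted p = 1.0 for each) and at a pseudocount of 1 (0.0563 and 0.280). The Myh3 call also ended without mdx 1 (limma adjusted p = 0.110), mdx utrn-/- (0.119), hDMD (0.0638), hDMD mdx 1 (0.0517) or hDMD mdx 2 (0.0745). Tnnt2, the embryonic and cardiac troponin T, differed by 1.64 ± 0.29 and missed the threshold (limma adjusted p = 0.0823), as it did under all 18. Their correlations with the slow genes' mean profile were 0.040, -0.046 and 0.17.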

How the data were processed

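Deposited files hold 1 intensity per probe set on a linear scale, with 19.4% to 29.9% of values at or below 0 depending on the array. Per the labels' protocols, RNA was extracted with Trizol and RNeasy and labelled with biotin through a T7 primer. How the deposited intensities were scaled, and by which software, was not given in the sources used here. Control probe sets (66 of 12488) were left out. Intensities were quantile-normalised over the 9 arrays, values below 0 were set to 0, and 16 was added before log2. Probe sets with a mean above the 40th percentile (4.46) were kept. Differences were fitted with limma 3.58.1 in R 4.3.3 (lmFit, eBayes, two-sided, Benjamini-Hochberg over 7453 probe sets, threshold 0.05), after a check on simulated data. Genotype means shared 1 estimate of the spread, so a genotype with 1 mouse is assumed to vary like the others. Probe sets were named through GEO's platform annotation (10833 with 1 symbol, 396 with several, the latter unnamed). Arrays are of individual mice, and their number limits the precision.

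Alternatives were deposited values without normalisation, no filter, pseudocounts of 1 and 64, brightness as a block, age as a covariate, dim arrays only, and leaving out each mouse. Cyclic loess, leaving out wild-type 2 with mdx 1, and the block without mdx 1 or without wild-type 2 were added after seeing the data. Genes named are all probe sets of the 7 genes, the fast paralogues, from each other list those called or otherwise the 2 of smallest p between the dystrophin classes, and the 5 genes of most similar profile. Atp2a2, the other slow-associated genes beside it and Tnnt2 are named outside this rule, after their values were seen. The 7 genes and the lists were chosen with earlier results of these data known.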

Additional observations from a re-analysis of the deposited data

Results flagged for a closer look

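The 10 probe sets were examined for a single array far from the others among the 6 dystrophin-carrying arrays and among the 4 utrophin-carrying arrays on mdx backgrounds. Of the 19 cases with any spread, 3 held one. The chance rate of about 1 in 20 presumes values that are not cut at a floor, and does not apply to these 3. All 3 belong to probe sets under the filter whose other arrays in that group sit at the floor of 4. There, a single value off the floor is flagged whatever its size. Myh7 probe set 161547_f_at read 6.61 in wild-type 1 among the 6 dystrophin-carrying arrays. It read 4.61 in mdx 1 among the 4 utrophin-carrying arrays on mdx backgrounds. Tpm3 probe set 93265_at read 5.13 in mdx 2 among the same 4 arrays.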

How the results depend on the processing

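No slow gene was called between the dystrophin classes under 18 alternatives, or in mdx against wild-type and hDMD mdx against mdx under 17 (0 of 400 tests, smallest limma adjusted p 0.569). Of the 24 differences, 4 kept their sign under all of them: Myl3 and Tnni1 between the dystrophin classes and between hDMD mdx and mdx. The count of probe sets called between the dystrophin classes, 9, became 0 on deposited values (12 at an unadjusted p under 0.05), 2 without the filter, 1 at a pseudocount of 1 and 5 without wild-type 2 and mdx 1. Leaving out 1 mouse gave 2 to 19, lowest without hDMD, hDMD mdx 2 or mdx utrn-/- and highest without wild-type 1. The cause was not tested.

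On deposited values the Tnnt1 101383_at difference between the classes was -0.0052, that of Tnnc1 in mdx against wild-type -0.11, and that of Tnnt1 101383_at in hDMD mdx against mdx 0.34. In mdx against wild-type, Tnnc1 was -0.023 at a pseudocount of 64, -0.074 with cyclic loess and -0.085 with age, and Tnnt1 -0.43 and -0.12 with age. With age, Tnnt1 161361_s_at was -0.068 in hDMD mdx against mdx. Tpm3 between the classes was 0.039 on dim arrays normalised and filtered by themselves (-0.068 for the dim arrays as normalised with all 9), and without wild-type 2 and mdx 1 it was 0.20 and Myh7 0.42.

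With 1 mouse left out, the differences between the classes ran from -1.20 to 0.76 (Myh7), -1.49 to 0.27 (Myl2), -0.33 to 0.68 and -0.25 to 1.08 (Tnnt1), -0.27 to 0.81 (Tnnc1) and -0.54 to 0.42 (Tpm3). For mdx against wild-type they ran from -2.81 to 1.11 (Myh7), -2.53 to 1.01 (Myl2), -1.44 to 0.023 (Myl3), -1.10 to 1.5 and -1.15 to 1.88 (Tnnt1), -0.037 to 2.78 (Tnni1), -1.46 to 1.55 (Tnnc1) and -1.30 to 0.51 (Tpm3). For hDMD mdx against mdx they ran from -0.85 to 3.05 (Myh7), -0.38 to 3.14 (Myl2), -1.29 to 0.71 and -1.19 to 1.5 (Tnnt1), -0.69 to 1.44 (Tnnc1) and -0.22 to 1.26 (Tpm3). The extremes came from leaving out wild-type 1, wild-type 2, mdx 1, mdx 2 or, for Tpm3 between the classes, mdx utrn-/-. In mdx against wild-type and in hDMD mdx against mdx, dim arrays alone leave 1 mouse per genotype, which gives a value and no test. No paired analysis was made, since the arrays are of individual mice and the labels pair none of them.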
